A study of Mus musculus with 10 samples.

Results

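The fibroblast growth factor (FGF) system was followed in mouse neural tube explants: the FGF ligands, their receptors and co-receptors, the secreted FGF binding proteins, the FRS docking proteins and the FLRT membrane proteins. Its members were taken by gene symbol, 36 of the 42465 gene models in the table, and 20 of them had at least 0.5 FPKM (a level scaled to gene length and sequencing depth) in 5 or more of the 10 libraries and entered the test. Neural tubes with their neural crest cells were taken from WT and Ednrb-/- embryos at embryonic day 9.5 and cultured for 4 days, and RNA was sequenced from 5 explant samples of each genotype. Ednrb encodes the endothelin receptor type B, which pigment cell precursors need. The medium of both groups held 10% fetal bovine serum and 20 nM EDN3, the ligand of the missing receptor. What was removed of Ednrb, on which strain background, and whether embryos were pooled is left unstated by the labels. Ednrb itself stood at 43.8 to 60.7 FPKM in WT and at 2.34 to 11.7 FPKM in Ednrb-/- libraries.

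Secreted FGFs bind heparan sulfate chains and a receptor tyrosine kinase on the target cell. The activated receptor phosphorylates the docking proteins FRS2 and FRS3, which pass the signal to RAS, ERK and PI3K, while Sprouty, Spred and dual-specificity phosphatase genes are induced as brakes. In the neural tube the pathway holds progenitors in an immature state along the body axis, patterns the dorsal tube and acts on crest cells, and FGF2 is a classical mitogen of cultured melanocytes. The FGF homologous factors FGF11 to FGF14 stay inside the cell and bind voltage-gated sodium channels.

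Explants are mixtures, and their levels of cell type markers differed between and within genotypes. Of the marker lists, neurons had 9 of 10 tested genes higher in Ednrb-/- (summed level 932.5 to 1275 FPKM in WT and 1574 to 1772 FPKM in Ednrb-/-), smooth muscle 8 of 8 lower (321 to 2461 and 44.6 to 277 FPKM), fibroblast-like mesenchyme 8 of 9 lower (198 to 1066 and 50.95 to 152 FPKM), neural crest 7 of 11 lower (169 to 240 and 109.7 to 158 FPKM), glia and Schwann cell precursors 5 of 7 lower and 1 higher (209 to 451 and 386 to 527 FPKM), and melanoblasts 7 of 8 lower (73.6 to 221 and 11.4 to 21.4 FPKM). The remaining mesenchyme gene, Dcn, a matrix proteoglycan, rose from 6.72 ± 2.80 to 44.2 ± 32.2 FPKM (n = 5, SD; limma, adjusted p = 0.0178). Tailbud and somite markers had 2 of 4 tested genes lower, and their sum was 70.2 FPKM in WT replicate 2 and 35.8 FPKM in WT replicate 5, against 11.3 to 11.4 FPKM in the other WT and 2.80 to 11.9 FPKM in the Ednrb-/- libraries, with Msgn1 listed at 0 throughout. Blood markers summed to at most 0.460 FPKM, with Hba-a1 listed at 0. Skeletal muscle markers had 2 of 2 tested genes lower, endothelium 1 of 1 and epithelium 3 of 3. Beside these counts, 13.0% of all genes tested were lower and 6.53% higher. Neural tube progenitor markers, which define the labelled tissue, were present at 869 to 1020 FPKM in WT and 852 to 979 FPKM in Ednrb-/- libraries. Of these 11 genes Vim (427 to 211 FPKM on average) and Nes (86.3 to 59.4 FPKM) fell, and Fabp7, also on the glial list, rose (268 to 427 FPKM). The share of 1748 weakly expressed protein-coding genes (mean 0.1 to 0.5 FPKM) listed at 0 was 4.18% to 7.21% in WT libraries but 10.9%, 49.4%, 36.6%, 5.15% and 19.7% in Ednrb-/- replicates 1 to 5. Values without Ednrb-/- replicates 2 and 3 are therefore given beside the results on the called members and on several other members and pathway genes. The marker genes named here, Dcn, Vim, Nes and Fabp7, were not looked up in that setting. In such bulk samples fewer cells of a type and less RNA per cell cannot be told apart.

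Across the system 3 members fell in the Ednrb-/- explants, the ligand gene Fgf5, the receptor gene Fgfr1 and the FLRT gene Flrt3, and 1 rose, the receptor gene Fgfr3. Fgf5 and Fgfr1 were below all WT libraries in all Ednrb-/- libraries, an ordering held by 8.44% of all genes tested, and 0 members were above all of them (4.78% of genes). The 20 tested members were called in 20% of cases, against 19.5% of all 15156 genes tested (13.0% lower and 6.53% higher), a share near the background. Their median log2 fold change (Ednrb-/- minus WT, on log2(FPKM + 0.5), which understates the change of low genes) was 0.08, and that of all genes tested 0.0048. The count of changed members was 8 without WT replicate 1 or without Ednrb-/- replicate 4, 10 with libraries weighted by quality, and 2 without Ednrb-/- replicates 2 and 3, namely Flrt3 and Fgf18. It was 0 without replicates 2, 3 and 5, where limma called 2 genes of the whole table. Among all genes tested, 990 were higher and 1966 lower, and 1603 and 1730 after quantile normalization.

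**Figure D1:**
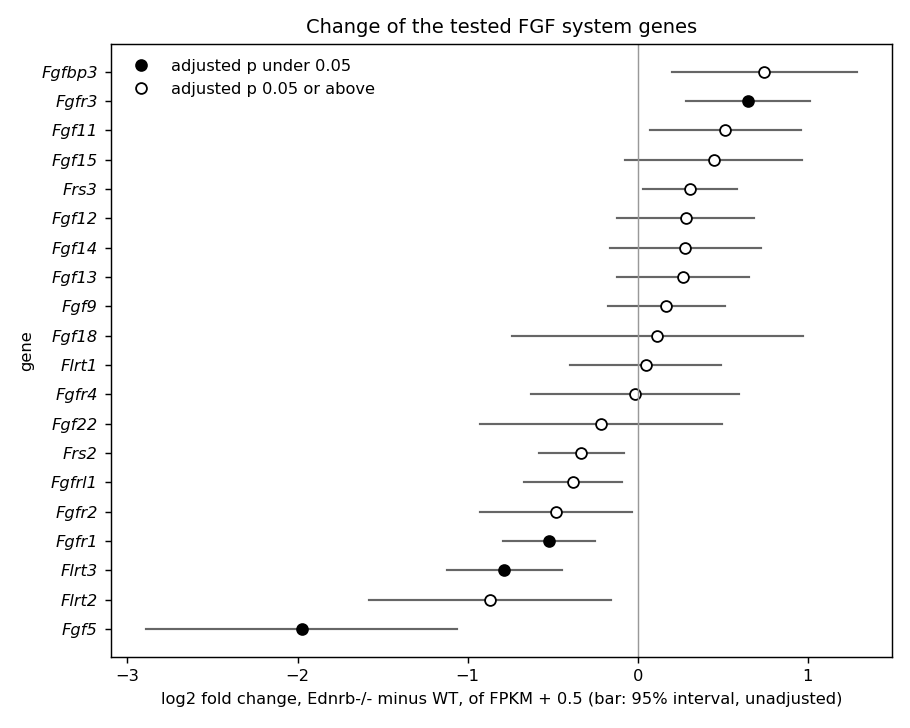
Log2 fold change, Ednrb-/- minus WT, of FPKM + 0.5 for the 20 tested members, with unadjusted 95% intervals as bars. Filled circles mark the 4 members with an adjusted p under 0.05: Fgf5, Flrt3 and Fgfr1 on the lower side and Fgfr3 on the higher side.

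Promoters are shown for Fgf5, Flrt3 and Fgfr3, 3 of the 4 called members, since Fgfr3 moved against the others. The Fgfr1 promoter is not shown. Each is the 250 bases before the outermost RefSeq start on GRCm38.p6, 5′ to 3′ on the gene's strand, at chr5:98253934-98254183 (plus strand) for Fgf5, chr2:140671477-140671726 (minus) for Flrt3 and chr5:33721474-33721723 (plus) for Fgfr3. Capitals mark letters that match a searched motif on either strand. The searched motifs for signal-driven factors were TGANTCA for AP-1, GGAATG for TEAD factors, CCGGAA for ETS factors and CTTTGA for TCF/LEF factors. Those of core promoters were CACGTG for the E-box, GGGCGG for the GC box, TATAAA for the element bound by TBP, and the CCAAT box by its own letters.
Fgf5: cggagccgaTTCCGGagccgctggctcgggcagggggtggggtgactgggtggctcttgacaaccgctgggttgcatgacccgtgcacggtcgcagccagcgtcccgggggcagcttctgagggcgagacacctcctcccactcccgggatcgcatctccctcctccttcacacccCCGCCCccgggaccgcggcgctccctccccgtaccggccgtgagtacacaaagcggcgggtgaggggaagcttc
Flrt3: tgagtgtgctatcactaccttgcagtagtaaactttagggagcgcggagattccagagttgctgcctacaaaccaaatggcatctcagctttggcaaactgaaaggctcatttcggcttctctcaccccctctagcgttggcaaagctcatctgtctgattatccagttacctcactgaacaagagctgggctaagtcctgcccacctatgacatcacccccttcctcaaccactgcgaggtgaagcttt
Fgfr3: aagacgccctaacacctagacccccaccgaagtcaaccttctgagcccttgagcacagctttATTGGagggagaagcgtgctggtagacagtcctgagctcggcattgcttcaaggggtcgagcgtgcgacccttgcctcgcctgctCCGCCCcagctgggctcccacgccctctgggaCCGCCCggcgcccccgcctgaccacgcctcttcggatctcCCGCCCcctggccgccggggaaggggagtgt
The Fgf5 window held an ETS match beginning 241 bases before the start and 1 GC box, with no overlap between motifs. The Fgfr3 window held 3 GC boxes, beginning 103, 71 and 31 bases before the start, and 1 CCAAT box at 188. The Flrt3 window held none of the letters searched. Among all 32851 windows of this length 32.7% held a GC box, 33.9% a CCAAT box, 12.03% an ETS match, 12.6% a TEAD match, 6.75% an AP-1 match, 13.8% a TCF/LEF match, 6.02% an E-box and 12.4% the TBP element. GC content was 70.8% for Fgf5, 66.8% for Fgfr3 and 50.0% for Flrt3, where the median of all windows was 52.4%.

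The receptor tyrosine kinase transcripts differed in make-up between these WT and Ednrb-/- libraries, though the shares themselves were not tested. Fgfr1, the receptor of most mesenchymal and many neural cells, lies on chromosome 8 from 24525860 to 24588986 (plus strand, in the C57BL/6NJ coordinates of the table). It stood at 17.1, 24.2, 19.4, 17.9 and 16.3 FPKM in WT replicates 1 to 5 and at 15.8, 11.6, 12.9, 13.3 and 11.5 FPKM in Ednrb-/- replicates 1 to 5. Every Ednrb-/- library was thus below every WT library. Fgfr1 fell from a mean of 19.0 ± 3.13 in WT to 13.02 ± 1.76 FPKM in Ednrb-/- (n = 5, SD), which on the log2 scale was -0.52 (SE 0.12; limma, adjusted p = 0.0132). Without Ednrb-/- replicates 2 and 3 the change was -0.47 and no longer passed (limma, adjusted p = 0.0819).

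Fgfr3, a receptor of ventricular zone progenitors and of growth plate cartilage, moved the other way. The gene lies on chromosome 5 from 33807791 to 33823185 (plus strand). Its level was 8.97, 12.6, 6.85, 8.12 and 10.5 FPKM in the WT libraries, in replicate order, against 12.1, 18.2, 17.1, 14.6 and 12.6 FPKM in the Ednrb-/- libraries. The groups overlapped only through WT replicate 2, which was level with Ednrb-/- replicates 1 and 5. Fgfr3 rose from 9.41 ± 2.22 to 14.9 ± 2.69 FPKM (n = 5, SD), which on the log2 scale was 0.65 (SE 0.17; limma, adjusted p = 0.0196). The call was lost without WT replicate 4 (limma, adjusted p = 0.0537), without Ednrb-/- replicate 3 (0.0512) and without Ednrb-/- replicates 2 and 3 (log2 fold change 0.48, adjusted p = 0.127). The neuron marker sum was likewise lowest in WT replicate 3 and highest among WT libraries in replicate 2, where Fgfr3 was lowest and highest. Among Ednrb-/- libraries that sum was highest in replicate 5 (1772 FPKM), where Fgfr3 was below its level in replicates 2, 3 and 4. The neural tube progenitor marker sum was also lowest in WT replicate 3 (869 FPKM) and highest among WT libraries in replicate 2 (1020 FPKM). Among Ednrb-/- libraries it was highest in replicate 2 (979 FPKM), as Fgfr3 was, and lowest in replicate 4 (852 FPKM), where Fgfr3 was not lowest. The part of neurons or of progenitors in the Fgfr3 result was not tested.

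Fgfr2, whose splice forms serve epithelium and mesenchyme, stood at 11.7, 20.2, 11.5, 12.2 and 10.8 FPKM in WT and at 13.5, 7.22, 10.1, 9.20 and 7.01 FPKM in Ednrb-/- replicates 1 to 5. WT replicate 2, the library with the highest tailbud marker sum, was far above the other WT libraries, and the genotypes overlapped. WT replicate 5, with the next highest tailbud sum (35.8 FPKM), had the lowest Fgfr2 of the WT libraries. The part of tailbud cells in the Fgfr2 levels was not tested. The means of 13.3 ± 3.92 and 9.39 ± 2.62 FPKM (n = 5, SD) gave a log2 fold change of -0.48 (unadjusted 95% interval -0.93 to -0.03) that did not pass (limma, adjusted p = 0.124; 0.0460 without Ednrb-/- replicate 1 and 0.3065 without replicates 2 and 3). Fgfr4, known mainly from liver and muscle, was scarce, at 0.356 to 1.64 FPKM in WT and 0.415 to 0.953 FPKM in Ednrb-/- libraries (limma, adjusted p = 0.978).

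Summed over the 4 kinase receptors, transcripts came to 37.9 to 39.0 FPKM in WT replicates 1, 3, 4 and 5, to 58.7 FPKM in WT replicate 2 and to 31.5 to 42.4 FPKM in Ednrb-/- libraries, so the sums overlapped while their parts differed. Fgfr1 made up 45.1 ± 3.66% of the sum in WT and 34.3 ± 2.99% in Ednrb-/-, Fgfr2 31.0 ± 2.22% and 24.4 ± 4.69%, and Fgfr3 22.3 ± 3.59% and 39.5 ± 7.03% (n = 5, SD). The Fgfr2 share of Ednrb-/- replicate 1, 31.8%, lay within the WT range. The ratio of Fgfr3 to Fgfr1 was 0.524, 0.521, 0.353, 0.454 and 0.643 in WT replicates 1 to 5 and 0.766, 1.57, 1.32, 1.103 and 1.09 in Ednrb-/- replicates 1 to 5. Fgfr1 was the most abundant kinase receptor in every WT library and in Ednrb-/- replicate 1, and Fgfr3 in the other 4 Ednrb-/- libraries. This ratio was chosen after both genes' values were seen and was not tested.

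**Figure D2:**
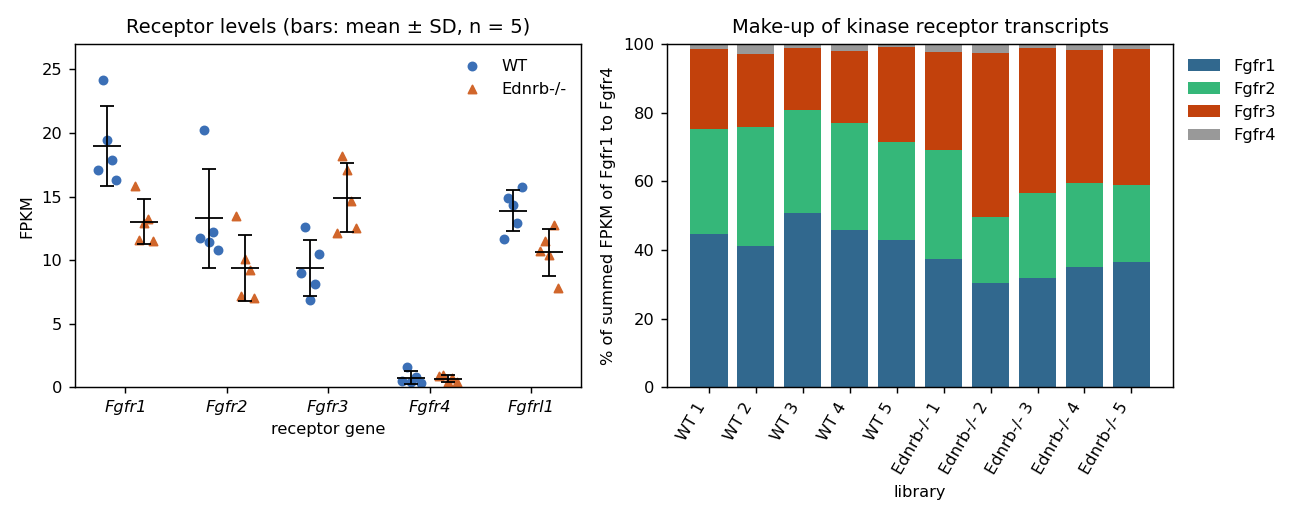
Left, FPKM of the 5 receptor genes in each library (circles WT, triangles Ednrb-/-, bars mean ± SD, n = 5 each); right, the percentage of the summed FPKM of Fgfr1 to Fgfr4 that each gene makes up, by library. Fgfr1 is lower in all Ednrb-/- libraries, and the Fgfr3 share runs from 17.9% to 27.6% in WT and from 28.6% to 48.0% in Ednrb-/- libraries.

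Fgfrl1, a receptor that binds FGFs but has no kinase domain, stood at 11.6, 14.9, 14.4, 12.9 and 15.7 FPKM in WT and at 10.7, 11.5, 10.4, 12.8 and 7.78 FPKM in Ednrb-/- replicates 1 to 5. Its lower mean, 10.6 ± 1.84 against 13.9 ± 1.63 FPKM (n = 5, SD), missed the threshold (limma, log2 fold change -0.38, adjusted p = 0.0639). Leaving out WT replicate 1 (0.0437) or Ednrb-/- replicate 4 (0.0344) brought it past, as did weighting libraries by quality (0.0236). The log2 fold change was -0.42 without Ednrb-/- replicates 2 and 3 (0.139). The klotho co-receptors, which endocrine FGFs need, were at the edge of detection. Kl was at 0.0751 to 0.241 FPKM in WT and 0 to 0.106 FPKM in Ednrb-/- libraries, and Klb reached at most 0.216 FPKM, both below the level required for testing.

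Of the 18 ligands that act outside the cell, 5 were tested: Fgf5, Fgf9, Fgf15, Fgf18 and Fgf22. Fgf5, a ligand of the early epiblast that later ends hair growth, had the largest fold change of the 20 tested members. It lies on chromosome 5 from 103787764 to 103814810 (plus strand). In replicate order, the WT libraries had 5.87, 4.64, 1.098, 1.01 and 2.91 FPKM (241, 179, 43, 41 and 98 reads), and the Ednrb-/- libraries 0.466, 0, 0.307, 0.567 and 0.189 FPKM (23, 0, 14, 23 and 8 reads). Every Ednrb-/- library lay below every WT library, and the WT libraries themselves fell into a higher trio (replicates 1, 2 and 5) and a lower pair (3 and 4). The 0 reads of Ednrb-/- replicate 2 allow up to 0.0924 FPKM (3 reads, counting error only). Fgf5 fell from 3.11 ± 2.15 to 0.306 ± 0.224 FPKM (n = 5, SD), which on the log2 scale was -1.98 (SE 0.42; limma, adjusted p = 0.00821).

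Fgf5 passed the minimum level through the WT libraries, since only 1 Ednrb-/- library reached it. Its log2 fold change was -2.93 with a pseudocount of 0.1 and -3.48 when recovered reads were tested by limma voom, and both passed. Without Ednrb-/- replicates 2 and 3 it was -1.78 and missed the threshold (limma, adjusted p = 0.0551). The melanoblast marker sum was also highest in WT replicates 1, 5 and 2 (221, 209.9 and 126 FPKM) and lower in replicates 3 and 4 (86.8 and 73.6 FPKM), and its part in the Fgf5 result was not tested.

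Fgf15, the mouse counterpart of human FGF19 and a ligand of the embryonic neural tube, was the most abundant ligand. The WT libraries had, in replicate order, 15.6, 27.6, 15.8, 25.7 and 17.6 FPKM, the Ednrb-/- libraries 33.9, 28.1, 35.2, 15.4 and 28.9 FPKM. All Ednrb-/- libraries but replicate 4 were above every WT library, and replicate 4 was below all of them. The means of 20.4 ± 5.73 and 28.3 ± 7.87 FPKM (n = 5, SD) gave no call (limma, log2 fold change 0.45, unadjusted 95% interval -0.07 to 0.97, adjusted p = 0.216; 0.65 and 0.0301 without Ednrb-/- replicate 4, 0.31 and 0.520 without replicates 2 and 3). Fgf15 alone made up 65.6 ± 8.60% of the summed FPKM of the 18 ligands in WT and 76.7 ± 11.2% in Ednrb-/- libraries. Its neighbours on chromosome 7, Fgf3 and Fgf4, lie with it within 67.2 kb but were not tested: Fgf4 reached at most 0.245 FPKM, and Fgf3 was at 0.191 to 0.470 FPKM in WT and at 0.695, 0, 0.869, 0.211 and 0.683 FPKM in Ednrb-/- replicates 1 to 5. The order of Fgf3 over the Ednrb-/- libraries other than replicate 2 followed that of Fgf15, with replicate 4 lowest and replicate 3 highest. It did not do so in WT, where Fgf3 was highest in replicate 1, the library with the lowest Fgf15. Fgf3 rested on at most 37 reads in any library.

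Fgf18, a ligand of cartilage and of the midbrain border, held 2.63, 2.90, 2.75, 3.53 and 4.16 FPKM in WT and 5.02, 0.738, 3.59, 6.40 and 4.52 FPKM in Ednrb-/- replicates 1 to 5. Ednrb-/- replicate 2 had 6 reads of it, where the other libraries had 27 to 65. With all libraries the log2 fold change was 0.12 (limma, adjusted p = 0.869), it was 0.66 without Ednrb-/- replicates 2 and 3 (0.0499), and it took the opposite sign without Ednrb-/- replicate 1 or 4. Fgf9, a ligand made by neurons and epithelia, was at 1.02 to 1.37 FPKM in WT and 1.08 to 1.78 FPKM in Ednrb-/- libraries (limma, adjusted p = 0.501). Fgf22, a ligand of synapse formation, rested on at most 9 reads in any library, and no change was detectable at this depth (limma, adjusted p = 0.692).

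The remaining 13 extracellular ligands lay below the level required for testing. Fgf2, the melanocyte mitogen, was at 0.617, 0.238, 0.722, 0.288 and 0.415 FPKM in WT and at 0.201, 0.0226, 0.217, 0.281 and 0.191 FPKM in Ednrb-/- replicates 1 to 5, so that only Ednrb-/- replicate 4 reached into the WT range. The Fgf2 model shares 5199 bases with Nudt6 on the opposite strand (1.095 FPKM in WT and 0.271 FPKM in Ednrb-/- on average), and the labels do not state whether reads were counted by strand. Fgf10, the mesenchymal partner of Fgfr2, was at 0.184 to 0.669 FPKM in WT and 0.167 to 0.757 FPKM in Ednrb-/- libraries. Fgf17, of the midbrain and hindbrain border, was at 0.108 to 0.345 and 0 to 0.939 FPKM, with the highest value in Ednrb-/- replicate 3. Fgf7, an epithelial growth factor made by mesenchyme, was at 0.0979 to 0.355 and 0.0724 to 0.151 FPKM.

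Fgf8, the tailbud and brain organizer ligand, had 4 reads in WT replicate 2, at most 1 read in any other library and a highest level of 0.191 FPKM. Fgf1, Fgf16, Fgf21 and Fgf23 reached at most 0.197, 0.0743, 0.205 and 0.391 FPKM, and Fgf6 and Fgf20 had 0 reads in all libraries. Ednrb-/- replicate 2 listed 12 of the 18 extracellular ligands at 0, against 2 to 6 in the other libraries.

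**Figure D3:**
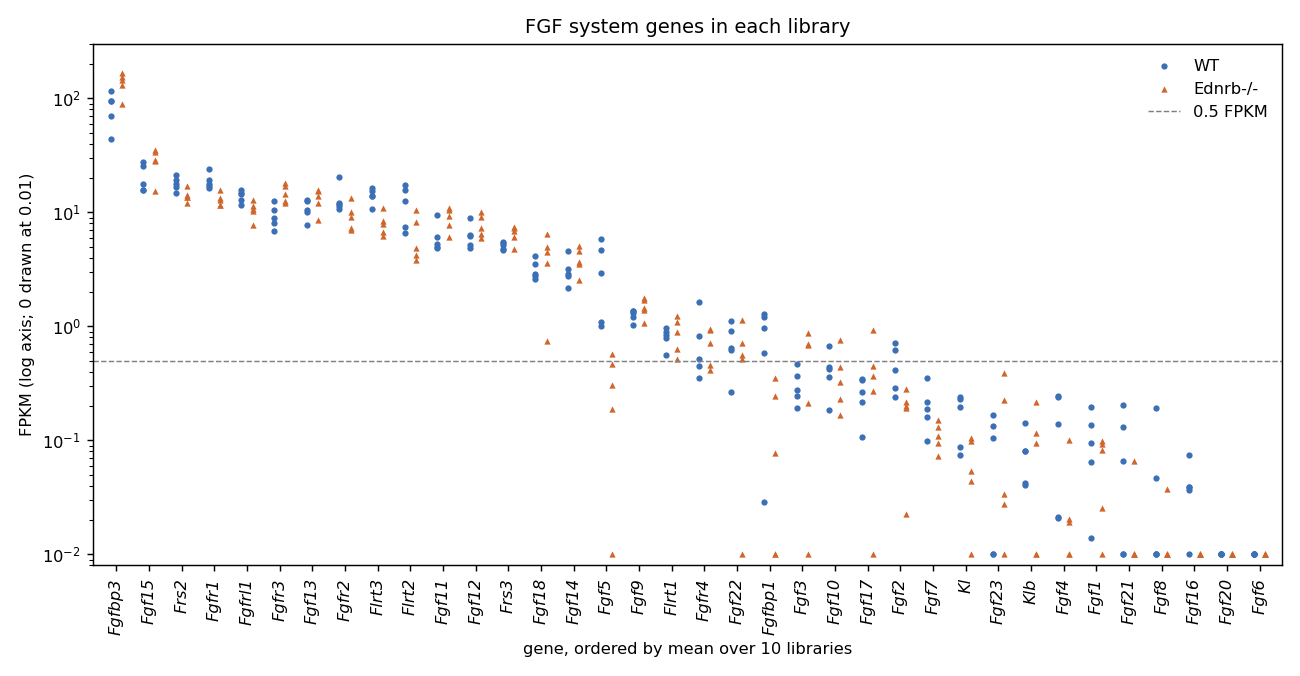
FPKM of all 36 members in each library on a log axis (circles WT, triangles Ednrb-/-, values of 0 drawn at 0.01), ordered by mean level, with the 0.5 FPKM minimum dashed. Fgfbp3 leads at 44.4 to 167 FPKM, and Fgf6 and Fgf20 are at 0 in all libraries.

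Intracellular FGF homologous factors were all expressed, and their 4 log2 fold changes were positive without passing the test (limma, with 1 at an unadjusted p under 0.05), nor did any pass after adjustment by limma voom. With libraries weighted by quality Fgf11 passed (limma, adjusted p = 0.0230). Fgf11 held 9.47, 5.29, 6.10, 4.90 and 4.94 FPKM in WT and 9.24, 10.99, 7.71, 6.04 and 10.6 FPKM in Ednrb-/- replicates 1 to 5, with WT replicate 1 in the Ednrb-/- range (log2 fold change 0.52, adjusted p = 0.0987; 0.67 and 0.0219 without WT replicate 1; 0.64 and 0.0385 without Ednrb-/- replicate 4; 0.47 and 0.249 without replicates 2 and 3). Fgf13, the most abundant of the 4, which also binds microtubules in young neurons, was at 10.7 ± 2.07 and 13.1 ± 2.87 FPKM (adjusted p = 0.325). Fgf12 was at 6.31 ± 1.60 and 7.78 ± 1.80 FPKM (0.313) and Fgf14, a gene of cerebellar ataxia, at 3.11 ± 0.884 and 3.87 ± 0.972 FPKM (0.369; n = 5, SD). Without Ednrb-/- replicates 2 and 3 the log2 fold changes of Fgf12, Fgf13 and Fgf14 were 0.23, 0.14 and 0.16, where all libraries gave 0.28, 0.27 and 0.28. Of the summed level, Fgf13 made up 40.9 ± 3.68% in WT and 38.8 ± 4.23% in Ednrb-/-. Of 8 sodium channel alpha subunit genes listed, 2 were tested and neither passed: Scn8a went from 3.05 to 3.44 FPKM (limma, adjusted p = 0.634) and Scn9a from 1.17 to 1.14 FPKM (0.990).

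Fgfbp3, a secreted carrier that frees FGFs from the matrix, was the most abundant member. Levels were 115, 94.8, 44.4, 70.0 and 94.8 FPKM over the WT libraries and 89.0, 167, 153, 146 and 131 FPKM over the Ednrb-/- libraries, in replicate order. Ednrb-/- replicates 2 to 5 were above every WT library, and replicate 1 was within the WT range. Mean levels of 83.9 ± 27.3 in WT and 137 ± 29.8 FPKM in Ednrb-/- (n = 5, SD) differed by 0.75 on the log2 scale, which missed the threshold (limma, adjusted p = 0.0563). It passed without WT replicate 1 (0.0324) and without Ednrb-/- replicate 1 (0.0271), and was 0.58 without Ednrb-/- replicates 2 and 3 (0.245). With all libraries it also passed by limma voom on recovered reads (adjusted p = 0.0371) and by limma with libraries weighted by quality (0.0380). Fgfbp1, the related carrier of epithelia, lay below the level required for testing, at 0.965, 0.0286, 0.590, 1.22 and 1.28 FPKM in WT and 0.246, 0, 0, 0.353 and 0.0779 FPKM in Ednrb-/- replicates 1 to 5. It was above 0.5 FPKM in 4 WT libraries and in no Ednrb-/- library, and the epithelial marker sum ran from 21.7 to 66.6 FPKM in WT and from 1.38 to 16.2 FPKM in Ednrb-/- libraries. WT replicate 2, where Fgfbp1 was lowest among WT libraries, also had the lowest of the WT epithelial sums, and its part was not tested.

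Neither docking gene passed the main test. With libraries weighted by quality both did (limma, adjusted p = 0.0093 for Frs2 and 0.0198 for Frs3), and Frs3 also passed after quantile normalization (0.0362). Frs2, the widely expressed docking protein, held 14.9, 16.8, 21.3, 19.4 and 17.7 FPKM in WT and 13.6, 16.9, 13.8, 14.3 and 12.1 FPKM in Ednrb-/- replicates 1 to 5 (limma, log2 fold change -0.33, adjusted p = 0.0625). Only Ednrb-/- replicate 2 reached into the WT range, and Frs2 passed without that library (0.0343) and without WT replicate 1 (0.0312), but not without Ednrb-/- replicates 2 and 3 together (0.0744). Frs3, its counterpart in neural tissue, was at 5.12 ± 0.357 and 6.50 ± 1.10 FPKM (n = 5, SD; limma, log2 fold change 0.31, adjusted p = 0.114; 0.0250 without Ednrb-/- replicate 2, 0.0755 without replicates 2 and 3). The fold changes of the pair were thus of opposite sign.

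FLRT proteins are leucine-rich membrane proteins that bind FGF receptors and the guidance receptors of the UNC5 and latrophilin families. Flrt3 lies on chromosome 2 from 148946916 to 148968666 (minus strand). It held 13.98, 10.8, 16.3, 13.9 and 15.4 FPKM in WT and 8.43, 7.97, 6.23, 10.9 and 6.70 FPKM in Ednrb-/- replicates 1 to 5. The groups met only at Ednrb-/- replicate 4 and WT replicate 2, which were level. Flrt3 fell by 0.78 on the log2 scale, with a standard error of 0.15 (limma, adjusted p = 0.00626), and by 0.68 without Ednrb-/- replicates 2 and 3 (0.0452). Its model lies wholly within Macrod2 on the opposite strand, whose mean was 1.76 FPKM in WT and 2.37 FPKM in Ednrb-/-.

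Flrt2, a FLRT gene of mesenchyme, held 7.49, 6.57, 17.3, 15.7 and 12.6 FPKM in WT and 8.24, 4.25, 3.83, 10.4 and 4.87 FPKM in Ednrb-/- replicates 1 to 5. The genotypes overlapped and the log2 fold change of -0.87 missed the threshold (limma, adjusted p = 0.0839). Leaving out WT replicate 2 (-1.05, 0.0390) or Ednrb-/- replicate 4 (-1.06, 0.0351) brought it past, as did weighting libraries by quality (-1.11, 0.0125). Without Ednrb-/- replicates 2 and 3 the change was -0.54 (0.356). The order of the WT libraries was that of the smooth muscle marker sum, which was 2461, 2072, 1493, 1339 and 321 FPKM in WT replicates 3, 4, 5, 1 and 2, and among Ednrb-/- libraries Flrt2 and that sum were both highest in replicates 4 and 1 (277 and 248 FPKM). Its part was not tested. Flrt1 was low, at 0.809 ± 0.154 and 0.873 ± 0.305 FPKM (n = 5, SD; limma, adjusted p = 0.898), and lies within Macrod1 on the opposite strand.

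**Figure D4:**
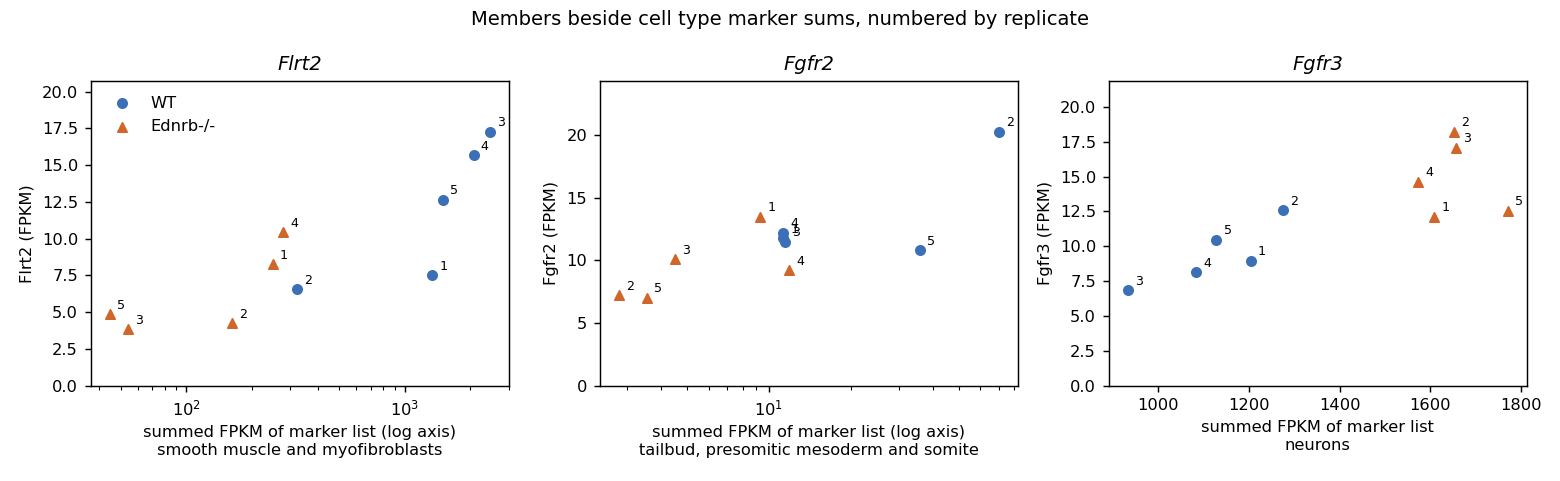
FPKM of Flrt2, Fgfr2 and Fgfr3 in each library (circles WT, triangles Ednrb-/-, numbered by replicate) against the summed FPKM of smooth muscle, tailbud and neuron markers (the first 2 on log axes). WT replicate 2 stands apart in the middle panel, at 20.2 FPKM of Fgfr2 and a tailbud sum of 70.2 FPKM. WT replicate 5, with the next highest tailbud sum (35.8 FPKM), has the lowest Fgfr2 of the WT libraries (10.8 FPKM).

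Below the receptors, 9 of the 14 tested feedback regulators and ETS targets fell. FGF signalling induces many, but not all, of the genes on this list. The other 5 did not pass (Spred3, Spred2, Cbl, Etv1 and Dusp4, at -0.54 to -0.11 on the log2 scale). The list median was -0.74 beside 0.0048 for all genes. Over all genes tested 13.0% were lower. This list holds genes whose direction was known from these samples and is not independent evidence. Etv5 and Etv4, ETS factors at the end of the pathway, went from 7.85 ± 1.57 to 2.70 ± 1.01 FPKM and from 5.15 ± 0.355 to 1.68 ± 1.04 FPKM. The ERK phosphatase gene Dusp6 went from 39.1 ± 9.65 to 11.6 ± 4.79 FPKM and the Sprouty gene Spry4 from 3.91 ± 1.496 to 0.728 ± 0.420 FPKM (n = 5, SD). Their adjusted p values by limma were 0.00276, 0.00412, 0.00313 and 0.00310. All 4 also passed without Ednrb-/- replicates 2 and 3, and other receptor tyrosine kinases induce these genes as well.

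Of the 19 adaptor and RAS-MAPK genes 2 rose and 4 fell, with a median of -0.07, where 6.53% of all genes tested were higher and 13.0% lower. The adaptor gene Shc1 fell from 11.5 ± 3.66 to 3.37 ± 1.45 FPKM (limma, adjusted p = 0.00412; 0.0325 without Ednrb-/- replicates 2 and 3) and the phosphatase gene Ptpn11, which docks on FRS2, from 39.5 ± 4.70 to 29.8 ± 2.29 FPKM (0.0147; 0.0947 without Ednrb-/- replicates 2 and 3). Rps6ka3, a kinase that ERK activates, fell from 19.2 ± 3.29 to 14.3 ± 0.876 FPKM (n = 5, SD; limma, adjusted p = 0.0302), but missed the threshold without WT replicate 3 (0.0684), 4 (0.0587) or 5 (0.0835) or without Ednrb-/- replicate 3 (0.0670) or 5 (0.0746), or without replicates 2 and 3 (0.102).

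Heparan sulfate is the co-receptor that FGFs need for binding, and its genes were mostly lower. Of 14 synthesis and editing genes tested 8 fell, with a median log2 fold change of -0.47, led by the chain polymerase gene Ext2 (-0.66), the chain initiation gene Extl3 (-0.66), the epimerase gene Glce (-0.59) and the sulfotransferase gene Hs3st1 (-1.102). Of 11 core protein genes 9 fell and 1 rose, with a median of -1.01. Over all genes tested 13.0% were lower and 6.53% higher. Both lists were chosen with earlier results of these data known and are not independent evidence. Gpc4, a glypican, went from 108 ± 61.6 to 14.5 ± 7.63 FPKM, Hspg2 (perlecan) from 63.1 ± 34.7 to 7.25 ± 6.46 FPKM, Gpc6 from 8.61 ± 1.58 to 3.31 ± 0.763 FPKM and the syndecan gene Sdc2 from 13.3 ± 3.52 to 5.21 ± 1.57 FPKM (n = 5, SD). The adjusted p values by limma of these 8 genes lay between 0.00276 and 0.00733, and all 8 also passed without Ednrb-/- replicates 2 and 3. The mesenchyme marker sum given above, with Dcn going the other way, moved with them, and its part was not tested.

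Receptor ligand choice depends on splicing, which values per gene do not resolve. Of the splicing factors, Ptbp1 fell from 50.1 ± 7.07 to 23.9 ± 4.95 FPKM (limma, adjusted p = 0.00276) and Ptbp2, its neuronal counterpart, rose from 38.4 ± 2.42 to 51.0 ± 3.87 FPKM (0.00552). Both also passed without Ednrb-/- replicates 2 and 3 (0.0290 and 0.0337). Srsf1 rose from 88.6 ± 5.68 to 109 ± 7.28 FPKM (n = 5, SD; 0.0210), but not without WT replicate 3 (0.0568), 4 (0.0507) or 5 (0.0520) or Ednrb-/- replicate 3 (0.0502), or without Ednrb-/- replicates 2 and 3 (0.108). Rbfox2, at 73.4 and 83.1 FPKM, did not pass (0.113). The epithelial factors Esrp1 and Esrp2, which favour the epithelial receptor forms, lay below the level required for testing.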

How the data were processed

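Gene expression was measured by RNA sequencing in 10 libraries of neural tube explants, 5 WT and 5 Ednrb-/-. The deposited values are FPKM, per the file headers and name, with 1 column per library and 0 further columns of values per sample. Trimming, alignment and counting tools named in the submitters' processing notes are fastp, HISAT2 2.0.5 and featureCounts 1.5.0-p3, with mm10, while the gene identifiers are those of the C57BL/6NJ assembly. The labels state no settings, filters or use of strand. Multiplying FPKM by gene length recovered whole reads (within 0.01) in 100% of cases. The sums were 13022266 to 19532570 reads per library.

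The test was limma 3.58.1 in R 4.3.3 on log2(FPKM + 0.5), by genotype, with all 10 libraries, a mean-dependent prior (trend) and no covariate. Genes entered with at least 0.5 FPKM in at least 5 libraries. P-values are two-sided, adjusted by Benjamini-Hochberg over all 15156 genes tested, with a threshold of 0.05. The fit was tested on simulated data. It called 0 genes where none had been changed. Where some had been changed, it called 114 of them and 4 unchanged genes. Of changes of 1.5-fold, 2-fold and 4-fold it recovered 29.7%, 50% and 96.9%. Changes of 2-fold or less were thus often missed in the simulation, so a gene that did not pass is not shown to be unchanged. The simulated counts had 1 spread per gene for all libraries and lacked the excess zeros of some Ednrb-/- libraries. Far fewer genes were changed in them than the 2956 called in the data. These rates therefore need not hold for the libraries used here. Replicates are called biological in the labels, with no source given, so p-values measure the spread between these samples.

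The members follow a rule on gene symbols. They, the pathway lists and the marker lists were chosen with earlier results of these data known. All members are accounted for, with up to 4 genes per pathway list by lowest p. A gene that this rule names is not reported here. Alternatives were another pseudocount, filter, scaling or weighting, limma voom on the recovered reads, a replicate block and leaving out libraries. Promoter sequences come from RefSeq on GRCm38.p6, matched by symbol for 28 of 36 members, and 250 bases before each start were searched.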

Additional observations from a re-analysis of the deposited data

Results flagged for a closer look

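Among the 40 groups of 5 libraries formed by the 20 tested members, 2 had a library far from the other 4, about as many as the 1 in 20 that chance gives. Fgf11 was at 9.47 FPKM in WT replicate 1, against 4.90 to 6.10 FPKM in the other WT libraries. Fgfr2 was at 20.2 FPKM in WT replicate 2, against 10.8 to 12.2 FPKM in the other WT libraries.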

How the results depend on the processing

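The 4 called members, Fgf5, Fgfr1, Flrt3 and Fgfr3, kept their direction under the alternatives run. Settings that leave out 1 library each gave 3 to 8 changed members (0 to 3 higher, 3 to 5 lower) where all libraries gave 4 (1 and 3), and 1898 to 3240 changed genes in the whole table (511 to 1151 higher) where all gave 2956 (990). The lowest whole-table counts came without WT replicate 3 (1898), 4 (1912) or 5 (1902). Array weights gave 10 members (4 higher, 6 lower) and 1684 higher genes. Quantile normalization and limma voom on recovered reads each gave 2 higher members. The first gave 1603 higher genes beside 1730 lower, and shifted the median of all genes to 0.0994. No filter gave 659 higher genes. Without Ednrb-/- replicates 2 and 3, an alternative chosen after seeing the data, 2 members (1 lower) and 1383 genes (291 higher, 1092 lower) changed. Without replicates 2, 3 and 5, likewise chosen, 0 members and 2 genes changed (0 higher, 2 lower by limma), with 2 Ednrb-/- libraries left. None of the tested members or of the pathway genes named in the report passed there. Ednrb and the marker genes were not looked up one by one under the alternatives. The causes were not tested.

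The replicate numbers are only shared labels: same-numbered libraries' deviations correlated between -0.163 and 0.153, and 1 of 5 WT libraries correlated best with its own number. With a replicate block 4 members, 1877 genes and 419 higher genes changed. Of the called pathway genes named, Ptpn11, Rps6ka3 and Srsf1 missed the threshold there (limma, adjusted p = 0.0632, 0.0954 and 0.0846).

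Changes of sign were seen in genes that did not pass, all as log2 fold changes. Fgf22 was at 0.14 by quantile normalization, -0.39 to 0.041 without single libraries, 0.10 without Ednrb-/- replicates 2 and 3 and 0.13 without 2, 3 and 5. Fgfr4 was at 0.0069 with a pseudocount of 0.1, 0.27 by quantile normalization, 0.032 by limma voom, -0.13 to 0.20 without single libraries and 0.15 without Ednrb-/- replicates 2, 3 and 5. Without single libraries Fgf18 was at -0.085 to 0.53 and Flrt1 at -0.044 to 0.15. Without replicates 2, 3 and 5 Flrt1 was at -0.13 and Fgf13 at -0.051. Scn9a was at -0.00050 with a pseudocount of 1, -0.0099 by TPM rescaling, -0.081 with array weights, -0.082 to 0.13 without single libraries, -0.093 without replicates 2 and 3 and -0.12 without 2, 3 and 5. Depth limits the low members: Fgf22 and the untested ligands rest on few reads.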

Other observations

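Of the 16 members below the level required for testing, 11 reached 0.5 FPKM in no library, and 2 were at 0 throughout. Ednrb-/- replicate 2 listed 15 of the 36 members at 0, and the other libraries 2 to 7. Over the whole table that library listed 26066 of 42465 gene models at 0 and Ednrb-/- replicate 3 listed 24570, against 19225 to 22205 in the other libraries, although Ednrb-/- replicate 3 had 17891512 recovered reads and WT replicate 5, with 13856545, listed 20432.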
